A study of Aspergillus nidulans with 38 samples.

Results

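Of 9541 *Aspergillus nidulans* genes counted, 14 had almost no reads before micafungin was added and were read in every flask 120 min later. They were chosen from read counts scaled to CPM, each gene's count relative to the library total, as the genes below 1 CPM in each of the 3 libraries at 0 min and at 3 CPM or more in each of the 3 libraries at 120 min. The 14 genes are AN0366, AN0694, AN2571, AN3234, AN3339, AN4142, AN5270, AN5271, AN5272, AN5273, AN5841, AN7515, AN8619 and AN9190. The levels at 0 and 120 min are therefore a description of how the genes were picked and are given with no test. The other times, 5 to 90 min, were not used to pick them and show when each gene became detectable.

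The strain was the parental strain AN1405 (stock FGSC A1405), the control strain of the study, with no gene deleted for this experiment. It grew in low pH YGV medium at 28 °C, first for 12 h as a seed culture and then for about 20 h in a large shake flask. Micafungin was then given to all cultures, with the dose set by biomass (20 ng/mL per 1 g/kg). Mycelium was taken 13 times, every 5 min from 0 to 30 min, every 10 min to 60 min, and then at 75, 90 and 120 min. RNA was sequenced from 3 flasks, the replicates, at each time except 15 min, which has 2 libraries, giving 38 libraries in all. Each flask was sampled in series, so libraries of 1 flask are not independent of each other. Every library after 0 min had micafungin, and cultures of equal age without the drug were not part of the series, so drug and culture time cannot be told apart.

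Micafungin is an echinocandin. It blocks the synthase that makes beta-1,3-glucan, a main strand of the fungal cell wall, and in *A. nidulans* the damage is sensed and relayed to the nucleus by the cell wall integrity pathway with its MAP kinase MpkA. Many fungal genes of conditional use, such as those of secondary metabolism and spore formation, are kept silent in growing hyphae and are switched on in groups. In filamentous fungi the genes of a metabolic pathway are often neighbours on a chromosome.

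Libraries held 5814843 to 10846567 counted reads, so that 1 CPM stood for 5.8 to 10.8 reads. Flask 2 stood apart at 0 min, where 97 genes were at least 4-fold above both other flasks, compared with 2 genes for flask 1 and 14 for flask 3. This flask set the size of the group. With flask 2 left out, 67 genes met the rule in flasks 1 and 3. Of the 53 genes so added, 48 were at 1 CPM or more in flask 2 at 0 min, with a median of 4.19 CPM there and 0.247 CPM in the other flasks, and 15 were below 3 CPM in flask 2 at 120 min. Leaving out flask 1 gave 20 genes and leaving out flask 3 gave 22. The 14 genes are in each of these sets by construction, since leaving out a flask only removes conditions.

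Silence at 0 min was common and leaving it was rare. There were 1504 genes below 1 CPM in each 0 min library, of which the 14 make 0.931%. Of the 1504, 1246 were also below 1 CPM in each 120 min library and 41 reached 3 CPM in some but not all flasks at 120 min. Among the silent genes outside the group, 0 had 3 CPM in all flasks at any time from 5 to 90 min other than 15 min, and 0 of all genes went the other way, with 3 CPM or more in each library at 0 min and below 1 CPM in each at 120 min. The line at 0 min ran close to some of the genes. AN0694, AN2571 and AN9190 each had 0.996 CPM, or 10 reads, in flask 2 at 0 min, and the nearest genes outside were AN9123 at 1.05, AN4829 at 1.20 and AN0231 at 1.30 CPM. AN0231 is ivoB, a conidiophore pigment gene. At 120 min the lowest library of AN7515 had 3.24 CPM, of AN4142 3.44 CPM and of AN9190 3.67 CPM, and just outside were AN9299 at 2.87, AN0148 at 2.74 and AN5269 at 2.61 CPM.

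Little is known of what the 14 encode. None has a gene symbol in the RefSeq table of assembly ASM1142v1, where 12 of the 14 were found by number, 11 of them as protein coding and AN4142 as a pseudogene. Reads of a pseudogene can be shared with a related copy, so the values of AN4142 are uncertain. The study's supplement describes AN3339 as a predicted oxidoreductase related to a quinone oxidoreductase of *Neurospora crassa*. It relates AN5841 to a nucleoside-diphosphate-sugar epimerase of the same fungus. AN7515 carries the annotation aspartic-type endopeptidase activity, an activity of secreted and vacuolar proteases. No function was found in the sources used here for the other 11. The study lists AN2571, AN3339 and AN5841 among its most overexpressed genes. Levels are compared between flasks and times within a gene and not between genes, since gene lengths of the build used for counting were not at hand.

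AN3339 was also followed by RT-qPCR in the study, and its primers are shown, 5′ to 3′, because they define the stretch by which a gene of the group was read outside sequencing.
AN3339 forward primer: cattgcaggtgttatccggg
AN3339 reverse primer: ttctcaacagtgccagcaac
AN3339 lies on chromosome VI in the RefSeq table. In RT-qPCR of separate cultures, the study reports a control-strain peak at the earliest time after the drug, then a decrease. Without mpkA the study saw little change, and it proposes that AN3339 depends on MpkA. In the other kinase mutants it followed, the study reports that the maximum came later than in the control strain. In the counts here, AN3339 was still rising after 60 min. It had 7.48, 7.19 and 1.17 CPM at 60 min and 44.6, 41 and 35.3 CPM at 120 min in flasks 1, 2 and 3. Why the courses differ was not tested. Promoter sequences of the 14 were not analysed here.

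**Figure D1:**
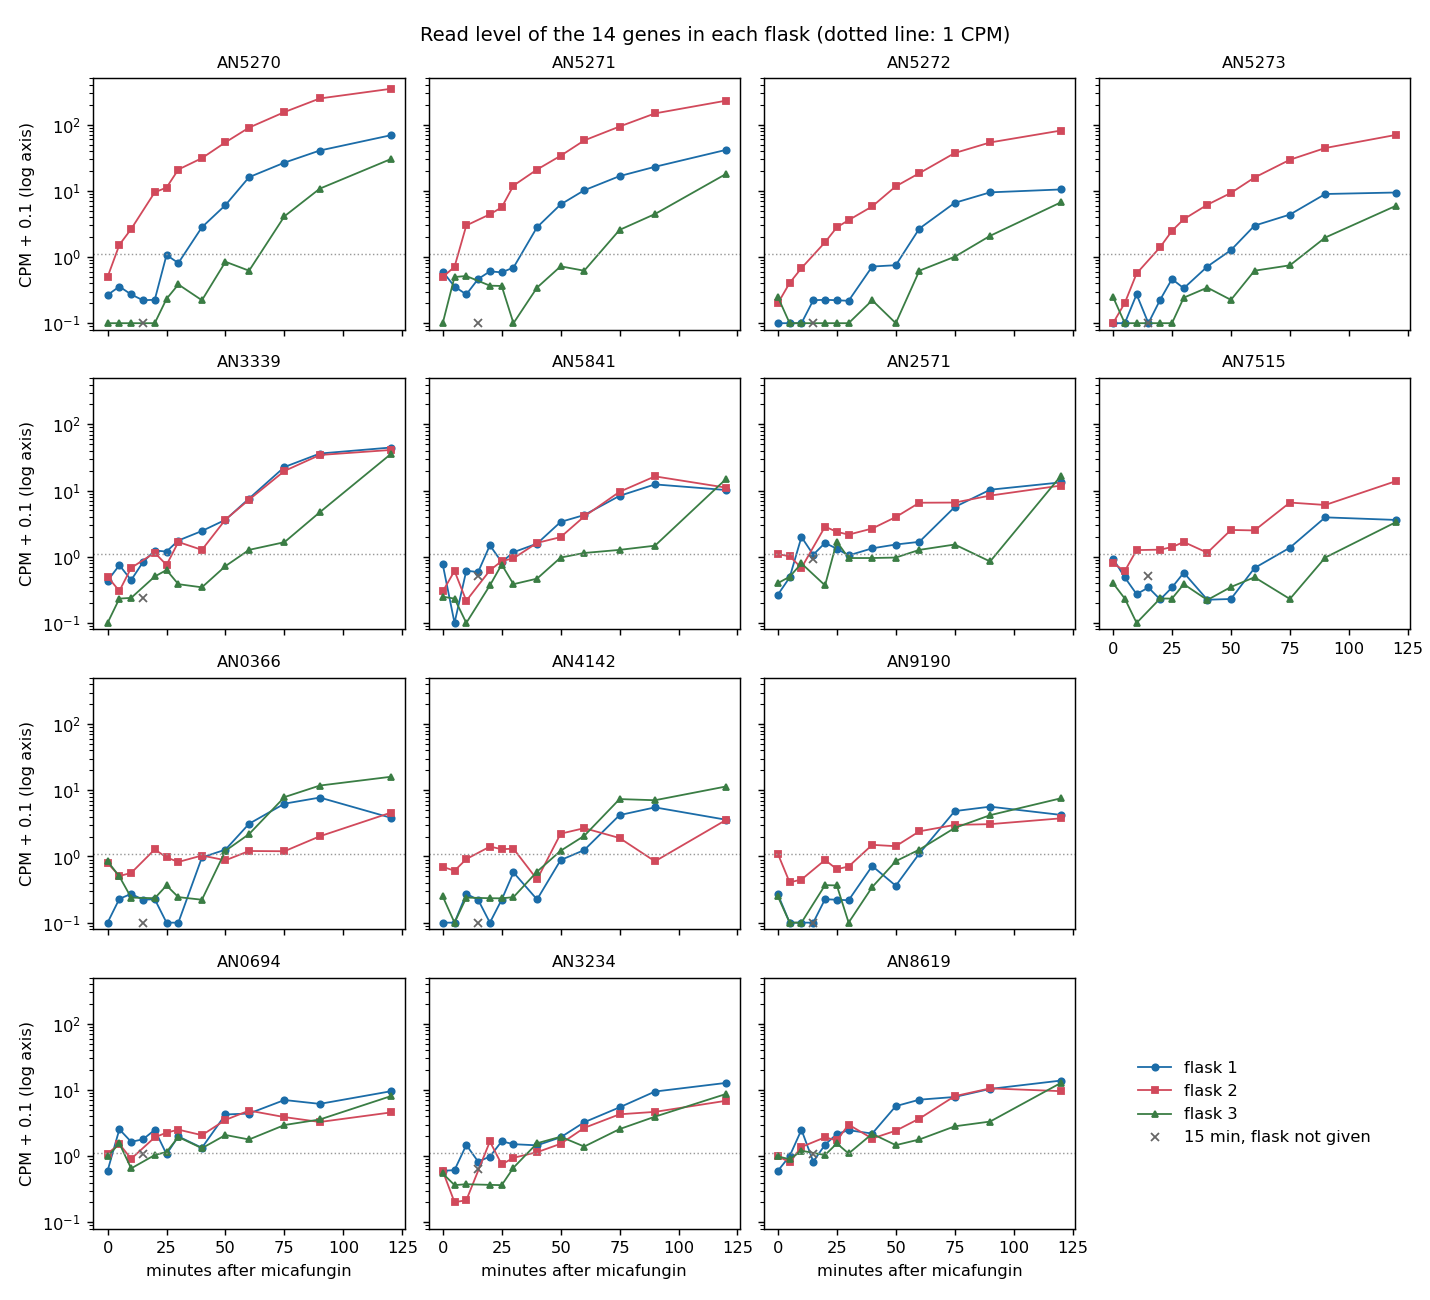
CPM plus 0.1 on a log axis against minutes after micafungin for each of the 14 genes, with 1 line for each of the 3 flasks, a cross for the 15 min library whose flask is not given, and a dotted line at 1 CPM. In the top row flask 2 leads flask 1 and flask 1 leads flask 3 from 20 min on, while in AN3339, AN5841 and AN2571 flask 3 is the lowest at 60, 75 and 90 min and in AN0366 and AN4142 flask 2 is the lowest at 75 and 90 min.

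A gene was called detected from the first time at which all 3 flasks had 1 CPM or more and kept it at every later time to 90 min. By this measure detection was spread over the whole course. No gene met both conditions from 5 to 25 min, but some had 1 CPM or more in all 3 flasks and then fell below it. These were AN0694 at 5 min (2.45, 1.43 and 1.46 CPM in flasks 1, 2 and 3), AN8619 at 10 and 25 min, and AN2571 at 25 min (1.22, 2.28 and 1.59 CPM). At 30 min AN8619 missed the line only in flask 3, with 0.999 CPM, or 7 reads. AN0694 was detected from 30 min, AN3234 and AN8619 from 40 min, AN0366, AN3339, AN5841 and AN9190 from 60 min, AN5270 and AN5271 from 75 min, and AN5272 and AN5273 from 90 min. AN2571, AN4142 and AN7515 were below 1 CPM in a flask at 90 min and so, by this measure, count from 120 min. AN2571 and AN4142 had been at 1 CPM or more in all 3 flasks at 60 and 75 min. At 90 min AN2571 fell to 0.748 CPM, or 6 reads, in flask 3. AN4142 fell to 0.745 CPM, or 7 reads, in flask 2. Thus 1 gene was detected by 30 min, 7 by 60 min and 11 by 90 min.

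The flasks differed in timing more than the group count shows. Taken flask by flask, the median time of detection over the 14 genes was 40 min in flask 1, 20 min in flask 2 and 60 min in flask 3. By 20 min, 2 genes were detected in flask 1, 8 in flask 2 and none in flask 3. By 60 min the counts were 13, 13 and 8. The widest gap within a gene was in AN7515, detected from 10 min in flask 2, 75 min in flask 1 and at 120 min in flask 3. This gap rests on levels close to the line. In flask 2 AN7515 had 7 reads at 0 min and 9 to 13 reads, or 1.05 to 1.57 CPM, from 10 to 40 min. In flask 3 it had 0.873 CPM, or 7 reads, at 90 min. The narrowest was in AN0366 and AN0694, at 10 min each. The order was not the same for all genes, as AN4142 was detected from 50 min in flask 3 and from 60 min in flask 1 but dropped to 0.745 CPM in flask 2 at 90 min. At 15 min, the time left out of these calls, AN0694 alone reached 1 CPM, with 1.70 CPM in flask 1 and 0.963 CPM in the other library.

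**Figure D2:**
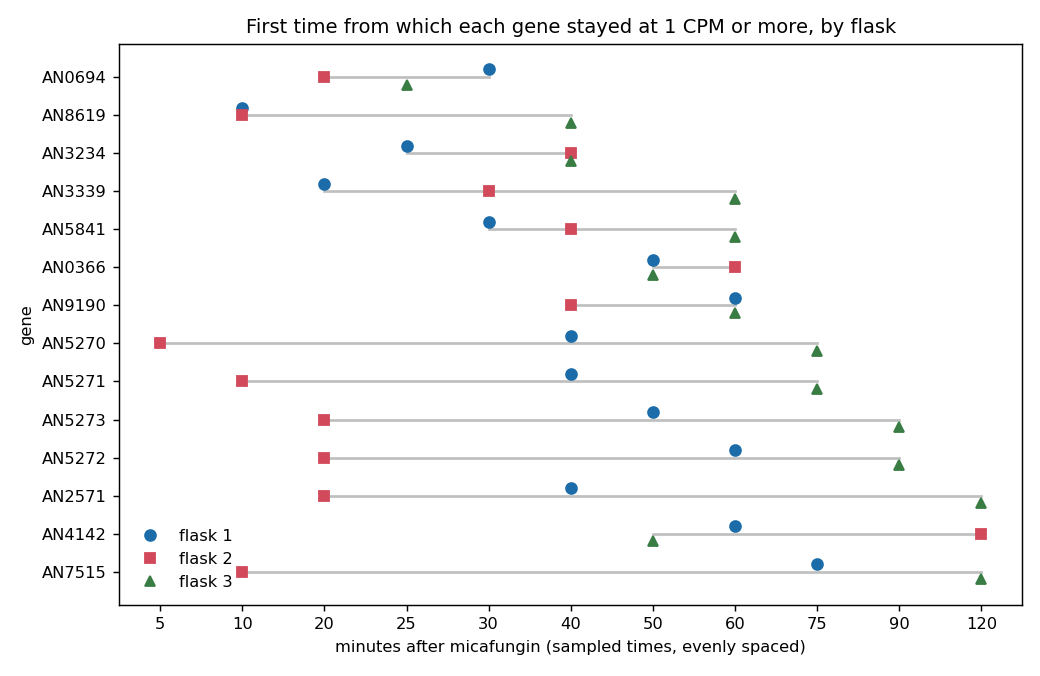
For each gene (rows), the first sampled time (x axis, minutes, evenly spaced) from which it stayed at 1 CPM or more to 90 min. Markers are a circle for flask 1, a square for flask 2 and a triangle for flask 3. A point at 120 min stands for a gene below 1 CPM in that flask at 90 min, also where it had passed 1 CPM before. AN5270 to AN5273 show the same order in all 4 rows, flask 2 first at 5 to 20 min, flask 1 at 40 to 60 min and flask 3 at 75 or 90 min.

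The genes AN5270, AN5271, AN5272 and AN5273 carry consecutive numbers. They are the only members with another member as neighbour by number. Over all 9541 genes, 0.273% have a member as neighbour. In the RefSeq table AN5273, AN5272, AN5270 and AN5269 follow each other in this order, with 2 gene models of other numbers where AN5271 would stand.

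AN5270 had 0.258, 1.43 and 0 CPM at 5 min in flasks 1, 2 and 3. It had 0.71, 20.9 and 0.285 CPM at 30 min, 16, 90.2 and 0.521 CPM at 60 min, and 40.6, 249 and 10.7 CPM at 90 min. At 120 min the levels were 69, 348 and 30 CPM. Each flask climbed, but from a different time, with flask 2 past 9 CPM at 20 min, flask 1 at 60 min and flask 3 at 90 min.

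AN5271 had 10.1, 57.7 and 0.521 CPM at 60 min and 23, 148 and 4.36 CPM at 90 min in flasks 1, 2 and 3, against 0.258, 0.611 and 0.399 CPM at 5 min. AN5272 had 9.39, 53.8 and 1.99 CPM at 90 min, against 0, 0.306 and 0 CPM at 5 min. AN5273 had 8.86, 44.3 and 1.87 CPM at 90 min, against 0, 0.102 and 0 CPM at 5 min. All 4 genes kept flask 2 highest and flask 3 lowest at 60, 90 and 120 min.

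Summed over the 4 genes, flask 2 held 24.1 times the CPM of flask 1 at 30 min, 5.78 times at 60 min, 6.05 times at 90 min and 5.60 times at 120 min. Against flask 3, flask 2 held 93.3, 87.5, 26.1 and 12.1 times at these 4 times, so flask 3 came nearer while the ratio of flask 2 to flask 1 held from 60 min on. The early ratios rest on few reads and are imprecise. Over the 4 genes, flask 1 had 14 reads and flask 3 had 3 at 30 min, and flask 3 had 16 at 60 min. The spread between flasks was far wider than in most genes. On the scale log2(CPM + 0.5), the range over the 3 flasks at 60 min was 6.47 in AN5270, 5.83 in AN5271, 4.21 in AN5272 and 3.99 in AN5273, while the median range over the 9043 genes tested was 0.394. At most 0.144% of all genes tested had a range as wide as any of these 4.

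The edges of this stretch were sharp. AN5269 followed the same course and missed the rule only in flask 3 at 120 min. It had 4.76, 22.4 and 1.25 CPM at 90 min, against 0, 0.204 and 0 CPM at 5 min. AN5268, beside it, had 62.7, 54.8 and 46.6 CPM at 90 min, against 62.1, 82.1 and 63.4 CPM at 5 min. AN5274, on the far side, had 8.47, 9.47 and 6.98 CPM at 90 min, against 5.29, 7.95 and 3.59 CPM at 5 min. The fitted log2 fold changes at 90 min over 5 min were 6.82 ± 0.57 (SE) in AN5269, -0.36 ± 0.21 in AN5268 and 0.59 ± 0.27 in AN5274. By edgeR the adjusted p was 0.0657, 0.551 and 0.457 for these 3 flanking genes, with 3 libraries at each time.

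**Figure D3:**
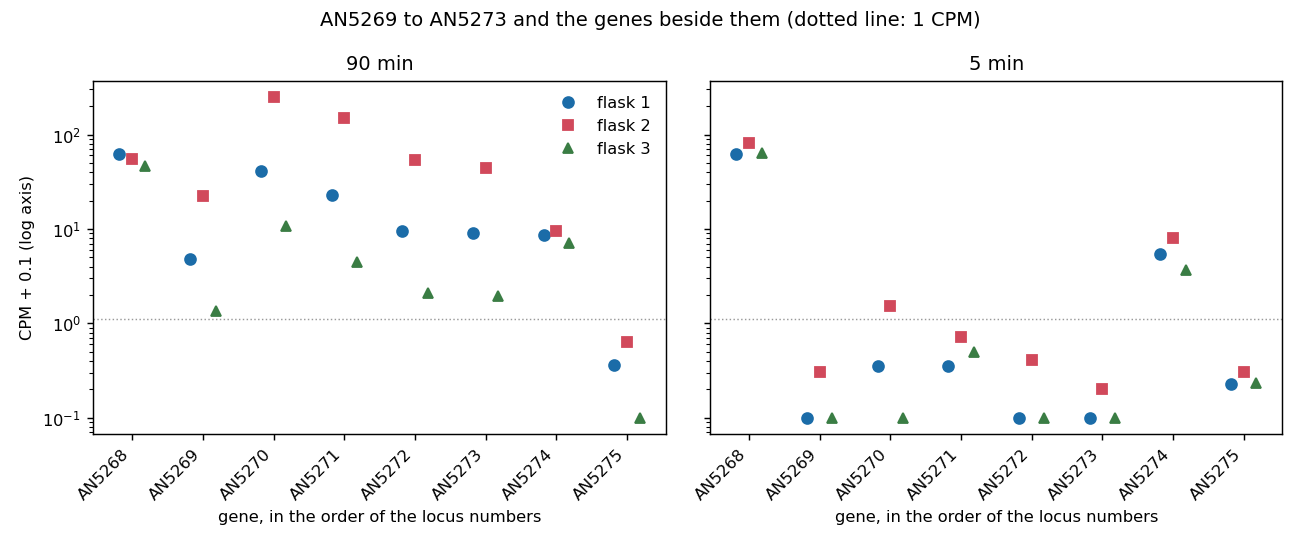
CPM plus 0.1 on a log axis for AN5268 to AN5275 at 90 min (left) and 5 min (right), with 1 point for each flask and a dotted line at 1 CPM. AN5269 to AN5273 are separated by flask at 90 min, with AN5270 at 40.6, 249 and 10.7 CPM in flasks 1, 2 and 3, while AN5268 and AN5274 lie close together at both times.

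The flask order of this stretch was shared by a few of the marker genes of the conidiophore and conidium, the asexual spore structures. At 90 min, 3 of the 9 markers had flask 2 above flask 1 and flask 1 above flask 3, namely brlA, abaA and rodA. Levels of rodA were only 0.249 to 1.28 CPM. At 5 min 3 of the 9 had this order, brlA, dewA and catA, so brlA alone had it at both times. The summed level over the 9 markers was 39.6, 151 and 30.0 CPM in flasks 1, 2 and 3 at 90 min, against 29.3, 27.7 and 20.1 CPM at 5 min, and at 60 min it was 22.3, 69.6 and 25.1 CPM. Of the 9, 4 to 8 were at 1 CPM or more, with none at 0 reads, in each library at 60, 90 and 120 min. brlA, the regulator that opens conidiation, had 11, 30.6 and 2.49 CPM at 90 min, against 1.03, 4.89 and 0.399 CPM at 5 min. ivoB had 1.98, 95.6 and 2.37 CPM at 90 min, against 0.129, 2.04 and 0.266 CPM at 5 min. Flask 3 was above flask 1 in ivoB both times, so ivoB did not share the order then. At 120 min ivoB had 6.23, 163 and 3.86 CPM and did share it. The order was found in 3 of the 9 markers at 60 min and in 4 at 120 min. The other 7 markers (abaA, wetA, wA, yA, rodA, dewA and catA) summed to 26.6, 25.2 and 25.2 CPM at 90 min, against 28.1, 20.8 and 19.4 CPM at 5 min. The part of these markers in the level of the 4 genes was not tested. The 5 markers of vegetative hyphae summed to 6595 to 7398 CPM at 90 min and 8849 to 9565 CPM at 5 min. In bulk RNA, fewer cells that use a gene and less RNA of it in each cell cannot be told apart.

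In AN3339, AN5841 and AN2571 flask 3 was the lowest at 60, 75 and 90 min, and all 3 flasks were close at 120 min. AN8619 had the same course, with 1.44-fold between the highest and lowest flask at 120 min. Flask 3 was also the lowest at these times in AN3234, AN7515 and AN5270 to AN5273. Their flasks differed by 1.88-fold or more at 120 min. AN3339 had 7.48, 7.19 and 1.17 CPM at 60 min and 36.2, 34.4 and 4.61 CPM at 90 min, against 0.645, 0.204 and 0.133 CPM at 5 min. At 120 min it had 44.6, 41 and 35.3 CPM, so the flasks had come together. AN5841 had 4.17, 3.96 and 1.04 CPM at 60 min and 12.3, 16.3 and 1.37 CPM at 90 min, against 0, 0.509 and 0.133 CPM at 5 min, and 10.1, 11 and 14.7 CPM at 120 min. In AN2571 flask 1 was near flask 3 first and near flask 2 later, with 1.58, 6.45 and 1.17 CPM at 60 min and 10.2, 8.3 and 0.748 CPM at 90 min, against 0.387, 0.917 and 0.399 CPM at 5 min, and 13.2, 11.8 and 16.6 CPM at 120 min.

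In flask 3 the step at 120 min over 90 min, as a ratio of CPM + 0.5, was 7.01-fold for AN3339, 8.11-fold for AN5841 and 13.7-fold for AN2571. These 3 of the 14 passed a 4-fold step on this scale in flask 3, as did 44 of the 9043 genes tested, or 0.487%. None of the 14 passed it in flask 1 or flask 2 over the same interval, although on plain CPM AN4142 was 4.62-fold higher at 120 min in flask 2 and AN5271 4.08-fold higher in flask 3. The 120 min libraries helped to choose the genes, so these steps are described and not tested.

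In AN0366 and AN4142 the lowest flask at 75 and 90 min was flask 2. AN0366 had 6.18, 1.1 and 7.79 CPM at 75 min and 7.67, 1.92 and 11.7 CPM at 90 min, against 0.129, 0.407 and 0.399 CPM at 5 min. In AN4142 flask 2 was first the highest, with 1.15, 2.58 and 1.95 CPM at 60 min, and then the lowest, with 5.42, 0.745 and 6.98 CPM at 90 min, against 0, 0.509 and 0 CPM at 5 min. In both, flask 1 was lower at 120 min than at 90 min, with 3.76 and 3.5 CPM at 120 min, against 7.67 and 5.42 CPM at 90 min. AN9190 had 5.56, 2.98 and 4.11 CPM at 90 min, against 0, 0.306 and 0 CPM at 5 min, and its 3 flasks lay within a range of 0.799 on the log2 scale at 90 min, the narrowest of the 14. Of its neighbours by number, AN9189 stayed at or below 0.249 CPM at 90 min. AN9191, related to an alkanesulfonate monooxygenase of *N. crassa*, had 1140, 560 and 996 CPM at 90 min, against 26.5, 163 and 10.4 CPM at 5 min. It is no member because it was already read at 0 min.

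The earliest genes, AN0694, AN3234 and AN8619, were still below 3 CPM in every flask at 30 min. AN0694 had 2.45, 1.43 and 1.46 CPM at 5 min, 1.89, 2.42 and 1.85 CPM at 30 min, and 6.08, 3.19 and 3.49 CPM at 90 min, so its early detection rests on levels close to the line. It was below 1 CPM again in flasks 2 and 3 at 10 min, with 0.813 and 0.554 CPM. AN8619 had 2.37, 2.90 and 0.999 CPM at 30 min, against 0.904, 0.713 and 0.798 CPM at 5 min. It had 10.3, 10.5 and 3.24 CPM at 90 min and 13.8, 9.52 and 12.7 CPM at 120 min. In flask 3 its level was thus 3.92-fold higher at 120 min than at 90 min on plain CPM. AN3234 had 9.39, 4.58 and 3.86 CPM at 90 min, against 0.516, 0.102 and 0.266 CPM at 5 min. AN7515, the endopeptidase gene, had 3.84, 5.96 and 0.873 CPM at 90 min, against 0.387, 0.509 and 0.133 CPM at 5 min, with flask 2 highest at every time from 10 min on at which all 3 flasks were read.

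Over all 14 genes at 90 min, flask 3 was the lowest flask in 10 and flask 2 in 4. Flask 2 was the highest in 7, flask 1 in 5 and flask 3 in 2. At 120 min flask 3 was the lowest in 6 and the highest in 5.

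To ask which of the genes rose by a test, 30, 60 and 90 min were each set against 5 min with edgeR's quasi-likelihood test, with the flask as a block and Benjamini-Hochberg adjustment over 9043 genes. All 14 genes were among those tested. These 3 comparisons share the 5 min libraries. They were made over flasks that also chose the genes, so they describe the size and spread of the changes and are not independent support for the choice.

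At 30 min none of the 14 rose and none fell, with 0.0% of all genes called in each direction. At an unadjusted p under 0.05, 8 of the 14 were higher at 30 min (4.76% of all genes), 13 at 60 min (6.94%) and 14 at 90 min (8.14%). DESeq2, another count model, called 1 of the 14 and 0.532% of all genes higher at 30 min, and a single edgeR fit of all libraries except 15 min called 1 of the 14 and 0.0885% of all genes. At 60 min, AN5270 rose alone among the 14, with 0.0221% of all genes called higher, and at 90 min AN5270 and AN5273 rose, with 0.0332%. None fell at either time. Fitted log2 fold changes were above 0 in 13 genes at 30 min and in all 14 at 60 and 90 min, with medians of 1.66, 3.48 and 4.63, while the median over all genes tested was 0.01 at each time.

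AN5270 rose by a log2 fold change of 5.92 ± 0.30 (SE) at 60 min, adjusted p = 0.013 by edgeR, and of 7.44 ± 0.34 at 90 min, adjusted p = 0.0333, higher in 3 of 3 flasks both times. At 60 min its libraries overlapped those of 5 min, since flask 3 had 0.521 CPM at 60 min and flask 2 had 1.43 CPM at 5 min, and the call rests on differences within flasks. AN5273 rose by 8.53 ± 0.51 at 90 min, adjusted p = 0.0424 by edgeR. It had 498 reads over the 3 libraries at 90 min and 1 read at 5 min, a ratio of CPM of 500.1 with an exact 95% interval of 89.3 to 19790 that covers counting error only.

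The next genes were just outside the threshold. AN5272 had a log2 fold change of 7.53 ± 0.50 at 90 min, adjusted p = 0.0506 by edgeR. It had 592 reads at 90 min and 3 at 5 min, a ratio of 198 with an interval of 67.5 to 964. AN3339 had 6.22 ± 0.45, adjusted p = 0.0627, and AN3234 had 4.32 ± 0.45, adjusted p = 0.0918, at 90 min by edgeR. AN9190 had 103 reads at 90 min and 3 at 5 min, a ratio of 34.5 with an interval of 11.5 to 170 and an adjusted p of 0.173 by edgeR. The smallest fitted change at 90 min was that of AN0694, 1.22 ± 0.30, adjusted p = 0.248 by edgeR. The 3 libraries at 90 min lay above all 3 at 5 min in 13 genes, compared with 11.1% of all genes tested, in 10 genes at 60 min, compared with 7.56%, and in 3 genes at 30 min, compared with 5.55%.

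**Figure D4:**
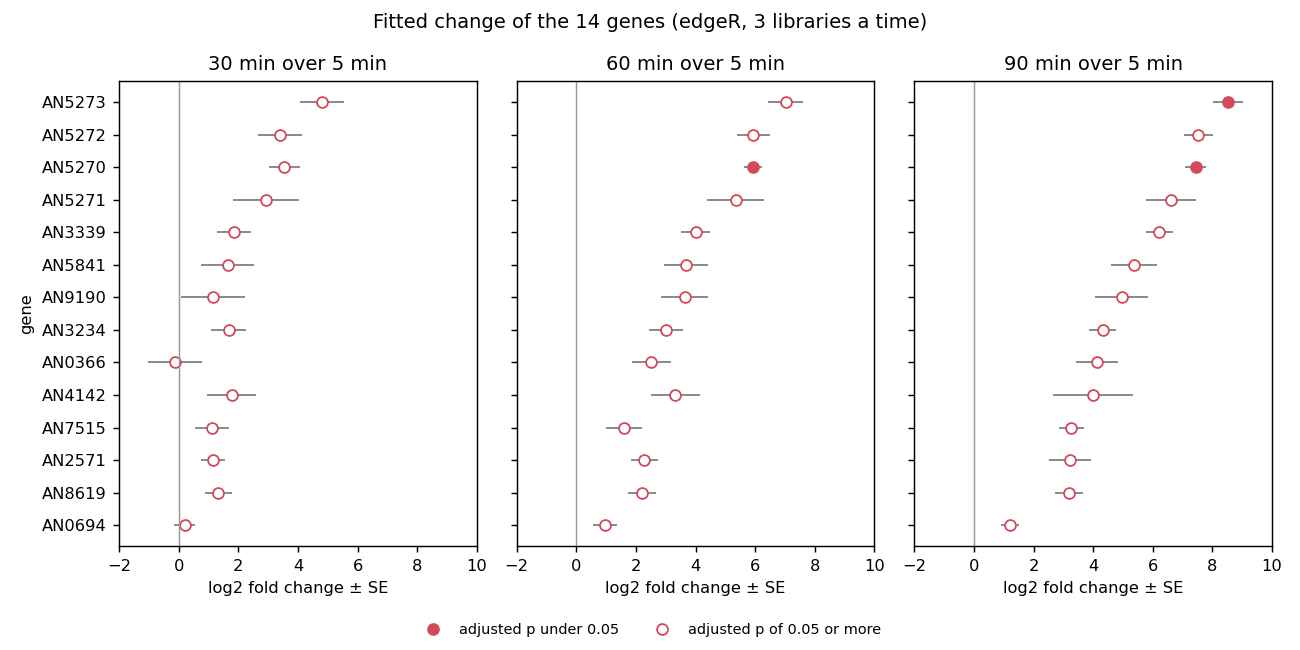
Log2 fold change with its SE (x axis) for each of the 14 genes (rows) at 30, 60 and 90 min over 5 min, with filled points at an adjusted p under 0.05 by edgeR with 3 libraries a time. AN5270 is filled at 60 and 90 min and AN5273 at 90 min, and every point of the 60 and 90 min panels lies right of 0.

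How many genes passed depended on the flasks and on how their spread was modelled. Without flask 2, 7 of the 14 rose at 60 min, with 3.69% of all genes called higher, and 10 at 90 min, with 3.12%, by edgeR, among them AN0366 at 5.13 ± 0.54, adjusted p = 0.0109, and AN3339 at 5.64 ± 0.48, adjusted p = 0.0049, at 90 min. Without flask 3 the counts were 4 and 5, with 0.21% and 0.199% of all genes, and without flask 1 they were 0 and 0, with 0.0% of all genes at both times. DESeq2 called 7 of the 14 at 60 min and 13 at 90 min, with 2.95% and 4.38% of all genes called higher. The edgeR fit of all libraries except 15 min called 10 and 14, with 3.78% and 9.59%. Beyond the flask block, that fit takes the serial libraries of a flask as independent, so its counts are not on a par with the others. Without the flask as a block, edgeR called 0 of the 14 at 60 min and 0 at 90 min, with 0.0% of all genes. At an unadjusted p under 0.05 in that fit, 12 of the 14 were higher at 60 min (4.64% of all genes) and 14 at 90 min (8.06%). None of these settings called any of the 14 lower.

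The lists of genes of known function held none of the 14. Of 128 genes on lists of spore formation, autolysis, wall alpha-glucan and secondary metabolism, 57 were below 1 CPM in each 0 min library and none was a member, a count near the 0.931% of all silent genes that are members. In 54 of the 57, at least 1 flask was still below 1 CPM at 120 min, about the share among all silent genes, 1435 of 1504 or 95.4%. The 54 included 12 of the 22 genes of the sterigmatocystin cluster, 13 of the 14 of austinol cluster B, all 6 of austinol cluster A and all 5 of the terrequinone cluster. The other 3 were conJ (AN5015), a conidial gene, amyF (AN3388), an amylase gene, and AN1035 of the asperfuranone cluster, each with 3 CPM or more in some but not all flasks at 120 min. By edgeR 0 of the 113 listed genes tested were called at 30, 60 or 90 min against 5 min, where at most 0.0332% of all genes were called in a direction. With flask 2 left out, ivoB and catA, a conidial catalase, were the listed genes among the 67 that met the rule.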

How the data were processed

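The authors aligned reads with HISAT2 and counted them per gene with HTSeq, using the Ensembl Fungi genome and annotation of FGSC A4. The sources used here do not give the annotation release or the strand setting. The deposited files are 12 tables by the authors, each of raw counts for a later time and 0 min beside normalized values and their own DESeq2 comparisons (fold changes and p-values), which were not used. The 33 repeated 0 min columns of counts were identical. The 15 min column headed with number 2, which the labels do not name, was used as a 15 min library of no given flask and is in no test; 1 column was of this kind.

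Counts were divided by the library total to give CPM. Tests used edgeR 4.0.16 in R 4.3.3 with TMM normalization on genes with at least 10 reads over the 38 libraries, a threshold of 0.05, and the flask as a block, since each flask was sampled in series. The block was checked from the data. Across genes, which are not independent replicates, deviations from the time mean at 5 min correlated with those of the same flask at 30 min (r = 0.333, 0.641 and 0.243 in flasks 1, 2 and 3), and at 60 min (0.084, 0.267 and 0.259), but not at 90 min (0.026, -0.159 and -0.037). SE is the log2 fold change divided by the root of its F statistic. Alternatives used DESeq2 1.42.0. On simulated data for 90 min against 5 min (9043 genes), edgeR recovered 2 of 67 genes with a 2-fold change set. It recovered 45 of 67 with a 4-fold change and 66 of 66 with a 16-fold one. Of its 118 calls, 5 were false. In the real data at 90 min, AN5272, AN3339, AN5271, AN5841, AN9190, AN3234 and AN0366 were not called. Their fitted log2 fold changes were 7.53, 6.22, 6.61, 5.38, 4.95, 4.32 and 4.14, all above 16-fold. AN5270 and AN5273, at 7.44 and 8.53, were called. The simulated recovery is therefore no measure of power for the genes of the group.

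The genes and lists were chosen with earlier results of these data known. Named genes were the 10 highest at 90 min, the 10 earliest and 5 latest detected, those with a member as neighbour or on a list, and those nearest each threshold; flanking genes, AN9191 and single listed genes were chosen after their values were seen. The planned search of promoters for motifs was not run.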

Additional observations from a re-analysis of the deposited data

Results flagged for a closer look

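The 15 min libraries entered no comparison. AN3234 was the 1 gene of the 14 that lay higher in both of them than in every 0 min library. Its lower 15 min library had 0.55 CPM, or 4 reads, and its highest 0 min library had 0.502 CPM, or 3 reads, a difference within counting error.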

How the results depend on the processing

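The group and its calls depend on thresholds near few reads and on 3 flasks. The rule gave 4 genes with 0.5 CPM as the limit at 0 min and 39 with 2 CPM, and 69 genes with 1 CPM as the limit at 120 min and 5 with 10 CPM. Leaving out 1 flask gave 20 to 67. With detection at 3 CPM, no gene was detected by 30 min, 0 by 60 min and 6 by 90 min, and the median time was 75 min over all flasks (40 min at 1 CPM), with 60 min in flask 1, 55 min in flask 2 and 90 min in flask 3. Asking for 2 of the 3 flasks gave 3 genes by 30 min and 13 by 60 min, and dropping the condition on later times gave 3 by 30 min. Leaving out 1 flask gave 1 to 3 by 30 min and 7 to 12 by 60 min. Keeping 15 min, or scaling by TMM, changed no count of detected genes by over 1.5 times.

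Without the replicate block, edgeR called no gene at 30, 60 or 90 min, against 2 calls at 60 min and 3 at 90 min with it, of which 1 and 2 were among the 14. The unadjusted p was under 0.05 for 808 genes at 60 min and 1253 at 90 min without it. DESeq2 called 75, 320 and 494 genes at the 3 times, and 1, 7 and 13 of the 14. The fit of all libraries except 15 min, which takes serial libraries of a flask as independent, called 16, 550 and 1435 genes. Of the 14 it called 1, 10 and 14. With reads needed in 2 replicates at each of the 13 times, 7 of the 14 were tested, and 1 gene was called at 60 min and 0 at 90 min, none of the 14. With 10 min in place of 5 min, 6 genes were called at 60 min. Summing 75 and 90 min against 5 and 10 min, an alternative added after seeing the data, called 5 genes. Leaving out 1 replicate gave 0 to 420 genes and 0 to 7 of the 14 at 60 min, and 0 to 315 genes and 0 to 10 of the 14 at 90 min. The cause of these differences was not tested.

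At 30 min the sign of 3 uncalled fold changes turned. AN0366 (-0.13) was 0.16 with 10 min in place of 5 min and -1.83 to 0.41 without 1 replicate, AN0694 (0.20) was -0.11 to 0.49, and AN5271 (2.92) was -0.20 to 3.77. No fold change at 60 or 90 min turned. With 5.8 to 10.8 reads to 1 CPM, a gene below the line in a library is not shown to be silent there.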
